A study of Mus musculus with 12 samples.

Results

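The genes described here encode 10 enzymes and carriers that bring long-chain fatty acids into mitochondria and break them down: Cpt1a, Slc25a20, Cpt2, Acadvl, Acadl, Acadm, Acads, Hadha, Hadhb and Acaa2. They were picked by symbol for their role in the pathway, with earlier results of these data known, and all 10 were found among the 56941 genes of the count table and passed the filter on low counts. The RNA came from live (DAPI-) CD45.2+ CD8+ cells of Panc02 tumours, a transplantable mouse pancreatic cancer, in wild type C57BL/6J mice. The cells were sorted as asGM1+ or asGM1- by the surface glycolipid asialo-GM1, and treatment was anti-PD-1 antibody, which blocks an inhibitory receptor of T cells, or an isotype control antibody. The 4 groups were asGM1+ and asGM1- cells under anti-PD-1 and asGM1+ and asGM1- cells under isotype control, with 3 libraries each. Age and antibody dose were not given in the labels. Nor was it said whether replicates came from separate mice, and p-values cover the spread among these libraries alone, which may be technical.

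Long-chain fatty acids are activated to acyl-CoA in the cytosol and cross into mitochondria as carnitine esters. CPT1 at the outer membrane makes the carnitine ester, a step that malonyl-CoA inhibits, SLC25A20 carries it across the inner membrane, and CPT2 turns it back into acyl-CoA. Inside, each round of beta-oxidation removes an acetyl unit through an acyl-CoA dehydrogenase, a hydratase, a hydroxyacyl-CoA dehydrogenase and a thiolase. For long chains the steps after the dehydrogenase sit in the mitochondrial trifunctional protein. In T cells the pathway is best known from work on memory CD8+ cells, where its need for CPT1A has been debated.

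Library totals ran from 58.1 to 73.2 M counts, and the 10 genes took 0.0788 to 0.111% of them. Summed levels of 6 CD8 T cell markers were 7673 to 8987 counts per 1 M (CPM, scaled by TMM factors) under anti-PD-1 against 9889 to 11313 CPM under isotype in asGM1+ cells, without overlap, and 8375 to 9739 CPM against 9205 to 9904 CPM in asGM1- cells. Of the 6, Cd8a and Cd3g passed as lower under anti-PD-1 in asGM1+ cells (3.01% of all tested genes did) and 0 in asGM1- cells (4.45%), by the test given below. The summed level of 4 heat shock genes was 370 to 688 CPM (asGM1+) and 377 to 729 CPM (asGM1-) under anti-PD-1, against 1169 to 1418 and 765 to 1222 CPM under isotype. Replicate 2 stood highest in both anti-PD-1 groups and in isotype asGM1- cells. In isotype asGM1+ cells replicate 2 had 1411 CPM, and replicate 3 stood highest at 1418 CPM. Macrophage and monocyte markers (12) summed to 187 to 329 (anti-PD-1) and 219 to 314 CPM (isotype) in asGM1+ cells, against 82.8 to 128 and 75.3 to 86.2 CPM in asGM1- cells. Plasmacytoid dendritic cell markers (8) summed to 735 to 936 and 748 to 793 CPM in asGM1+ cells under anti-PD-1 and isotype, against 790 to 899 and 853 to 1056 CPM in asGM1- cells. Within that list 4 of the 8 passed as lower in asGM1+ than in asGM1- cells under anti-PD-1 (0.654% of all tested genes did) and 6 of the 8 under isotype (0.943%), with median log2 fold changes of -2.86 and -3.87. Proliferation genes (8) summed to 1527 to 1753 CPM (anti-PD-1) against 1622 to 1977 CPM (isotype) in asGM1+ cells, and to 878 to 1048 CPM against 1428 to 1902 CPM in asGM1- cells. CD4 and regulatory T cell markers (4) summed to 21.4 to 36.3 CPM in asGM1+ against 57.1 to 119 CPM in asGM1- cells, without overlap, and 3 of the 4 passed as lower in asGM1+ cells on average over treatments (2.04% of all tested genes did). NK cell markers (4) summed to 108 to 229 CPM, epithelium and fibroblast markers (6) to 2.77 to 11.9 CPM and B cell markers (4) to at most 0.412 CPM. Adipocyte markers (4) summed to at most 0.122 CPM, with Adipoq and Cidec at 0 in every library. The part of these other RNAs in the results below was not tested. In bulk RNA, fewer cells of a type and less RNA per cell cannot be told apart.

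The upstream sequences of the carnitine shuttle genes and of the trifunctional protein pair are shown because the results below compare the members of each set with one another. The sequences and coordinates are RefSeq's for GRCm38.p6, not mm39, on which the authors' reads were placed; 9 of the 10 genes had an entry. Each is the stretch without annotated exons within 250 bases before the annotated start, read on the gene's strand: Cpt1a at chr19:3323051-3323284 (+), Slc25a20 at chr9:108661886-108662087 (+) and Cpt2 at chr4:107923611-107923839 (-). Hadha and Hadhb lie head to head with annotated starts 272 bases apart, so a single exon-free gap at chr5:30155163-30155247, written on the Hadhb strand (+), stands for both. Capitals mark the GC box GGGCGG and the nuclear receptor hexamer AGGTCA on either strand.
Cpt1a: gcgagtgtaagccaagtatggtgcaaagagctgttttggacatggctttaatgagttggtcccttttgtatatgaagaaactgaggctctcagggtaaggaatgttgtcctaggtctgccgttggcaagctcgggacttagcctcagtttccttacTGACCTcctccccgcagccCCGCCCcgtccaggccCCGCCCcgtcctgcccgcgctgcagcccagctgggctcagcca
Slc25a20: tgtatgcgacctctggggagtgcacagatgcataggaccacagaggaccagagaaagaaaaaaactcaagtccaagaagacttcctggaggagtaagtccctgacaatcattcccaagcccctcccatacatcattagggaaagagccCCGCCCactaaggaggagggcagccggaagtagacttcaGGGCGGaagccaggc
Cpt2: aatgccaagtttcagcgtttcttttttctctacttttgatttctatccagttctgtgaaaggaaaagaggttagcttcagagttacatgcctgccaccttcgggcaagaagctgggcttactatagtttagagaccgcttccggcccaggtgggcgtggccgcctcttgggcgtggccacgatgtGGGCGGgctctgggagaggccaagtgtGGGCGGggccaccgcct
Hadhb and Hadha: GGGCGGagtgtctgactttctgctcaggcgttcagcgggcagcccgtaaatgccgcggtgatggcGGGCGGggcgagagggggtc

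Both strands of the full 250-base windows were searched for 6 motifs. A GC box was found in 7 of the 9 genes, against 32.7% of 32851 RefSeq promoter windows, and was the motif that Cpt1a, Slc25a20, Cpt2, Hadha and Hadhb had in common. The windows of Hadha and Hadhb shared 228 of their 250 bases, so 1 GC box was counted for both genes. AGGTCA was found in 3 (Cpt1a, Acadvl and Acadm), against 14% of all windows, and CCAAT in 1 (Cpt1a), against 33.8%. A direct repeat of AGGTCA with 1 base between the copies, which PPAR and RXR receptors are known to bind, was found in 0 of the 9 and in 0.0335% of all windows. TCAAGGTCA, known as an element of estrogen-related receptors and holding AGGTCA within it, was in 0 of the 9 and 0.387% of all windows, and the E-box CACGTG in 0 of the 9 and 6.02%. Cpt1a and Slc25a20, which rose under anti-PD-1, had 2 and 3 GC boxes in the window and Cpt2, which did not pass the test, had 2. AGGTCA was in the windows of Cpt1a and Acadvl, which rose, and of Acadm, which did not pass, and was in neither that of Slc25a20 nor that of Cpt2.

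Among the 4 groups the main difference lay between treatments. Under anti-PD-1 the RNA for the entry steps, Cpt1a and Slc25a20, was 1.85 to 2.92 times as abundant as under isotype, while the RNA of the partner enzyme Cpt2 did not pass the test in either population. Among the enzymes of the spiral, Acadvl rose in both populations and Acads in asGM1+ cells by about 1.38-fold. Acadl, Acadm, Hadha, Hadhb and Acaa2 passed the test in neither population, and of these Hadhb passed on average over the populations. No gene of the 10 fell.

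The test was edgeR's quasi-likelihood F test in 1 fit over all 12 libraries, with p-values adjusted by Benjamini-Hochberg over the 18657 genes tested and 0.05 as the threshold. In asGM1+ cells 4 of the 10 passed as higher under anti-PD-1 than under isotype, where 3.72% of all tested genes did. In asGM1- cells 3 of the 10 passed as higher, where 4.11% of all tested genes did. By DESeq2, which passed 6.41% and 8.5% of its genes as higher in asGM1+ and asGM1- cells, 4 and 5 of the 10 passed. In asGM1+ cells 2 of the 10 passed in a fit of the 2 groups alone (2.19% of all tested genes) and 2 without both anti-PD-1 replicate 2 libraries (1.53%). The median log2 fold change of the 10 genes was 0.23 in asGM1+ and 0.26 in asGM1- cells, and that of all tested genes was -0.01 in each. The libraries of the treatments did not overlap, with anti-PD-1 higher, for 5 of the 10 in asGM1+ cells (11.8% of all tested genes) and for 6 in asGM1- cells (14.5%). For 4 of the 10 (Cpt1a, Slc25a20, Acadvl and Acads) all 6 anti-PD-1 libraries lay above all 6 isotype libraries, which held for 4.15% of all tested genes.

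**Figure D1:**
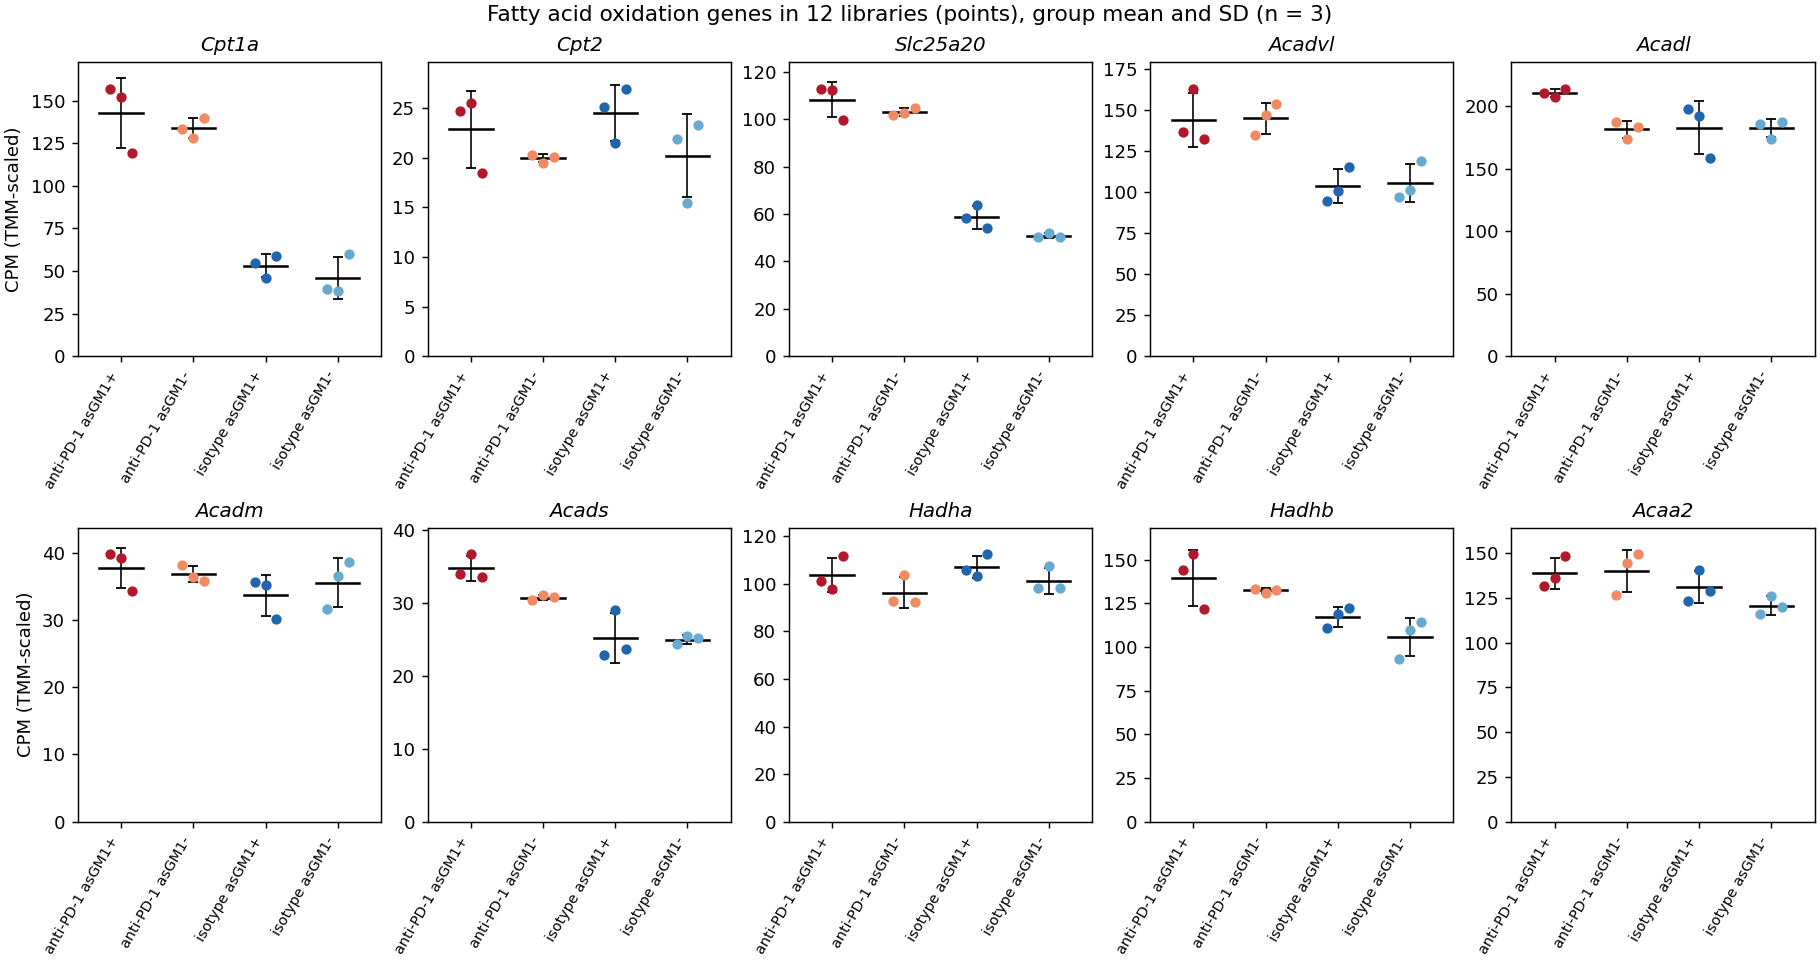
Levels of the 10 genes in TMM-scaled CPM (vertical axes, from 0) in the 12 libraries, as points by group, with the group mean (wide bar) and SD (whiskers, n = 3). Cpt1a and Slc25a20 show the widest gap between anti-PD-1 and isotype groups, and Cpt2 and Hadha show no such gap.

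Cpt1a (ENSMUSG00000024900), the liver-type CPT1 and the rate-limiting step of long-chain entry, moved most. In asGM1+ cells it stood at 157, 152 and 119 CPM under anti-PD-1, against 54.7, 45.7 and 59.0 CPM under isotype. In asGM1- cells it stood at 133, 128 and 140.1 CPM under anti-PD-1, against 39.4, 38.3 and 60.02 CPM under isotype. The lowest anti-PD-1 library, replicate 3 of the asGM1+ cells, was still about 2 times as high as the highest isotype library. The log2 fold change was 1.43 ± 0.17 (SE; adjusted p = 0.000625, edgeR) in asGM1+ and 1.54 ± 0.18 (adjusted p = 0.000595) in asGM1- cells, or 2.69-fold (95% interval 2.06 to 3.50) and 2.92-fold (2.24 to 3.80). The muscle-type paralog Cpt1b was at 0 to 0.135 CPM in the 12 libraries and was too low to test.

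Slc25a20 (ENSMUSG00000032602), the carnitine-acylcarnitine translocase, had 113, 112 and 99.8 CPM under anti-PD-1 against 58.2, 63.6 and 54.1 CPM under isotype in asGM1+ cells. In asGM1- cells it had 102, 103 and 105 CPM under anti-PD-1 against 50.3, 52.1 and 50.3 CPM under isotype. The groups were far apart and the spread within each was small, 1.59 and 1.01 CPM (SD, n = 3) in the asGM1- cells under anti-PD-1 and isotype. The log2 fold change was 0.88 ± 0.09 (adjusted p = 0.000125, edgeR) in asGM1+ and 1.02 ± 0.09 (adjusted p = 0.000153) in asGM1- cells. For Cpt1a and Slc25a20 the adjusted p was at most 0.00763 in each of the 20 alternatives run for these comparisons, which left out each library in turn and both anti-PD-1 replicate 2 libraries together.

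Cpt2 (ENSMUSG00000028607), which acts after the translocase, had 24.7, 25.6 and 18.4 CPM under anti-PD-1 against 25.2, 21.5 and 27.0 CPM under isotype in asGM1+ cells. In asGM1- cells it had 20.3, 19.5 and 20.1 CPM under anti-PD-1 against 21.9, 15.4 and 23.3 CPM under isotype. The treatments overlapped in both populations. The log2 fold change was -0.10 (95% interval -0.48 to 0.28; adjusted p = 0.820, edgeR) in asGM1+ and -0.02 (-0.40 to 0.36; adjusted p = 0.972) in asGM1- cells, so that a change as large as that of Cpt1a or Slc25a20 lay outside both intervals.

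The ratio of Cpt1a to Cpt2 counts within a library does not depend on scaling between libraries. It was 6.36, 5.95 and 6.46 in asGM1+ cells under anti-PD-1, against 2.17, 2.13 and 2.19 under isotype. In asGM1- cells it was 6.57, 6.58 and 6.97 under anti-PD-1, against 1.80, 2.48 and 2.58 under isotype. The treatments did not overlap in either population, and the two-sided exact permutation p was 0.1 in each, the smallest that 3 libraries against 3 allow. The ratio shows that the counts of the 2 genes changed unequally.

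**Figure D2:**
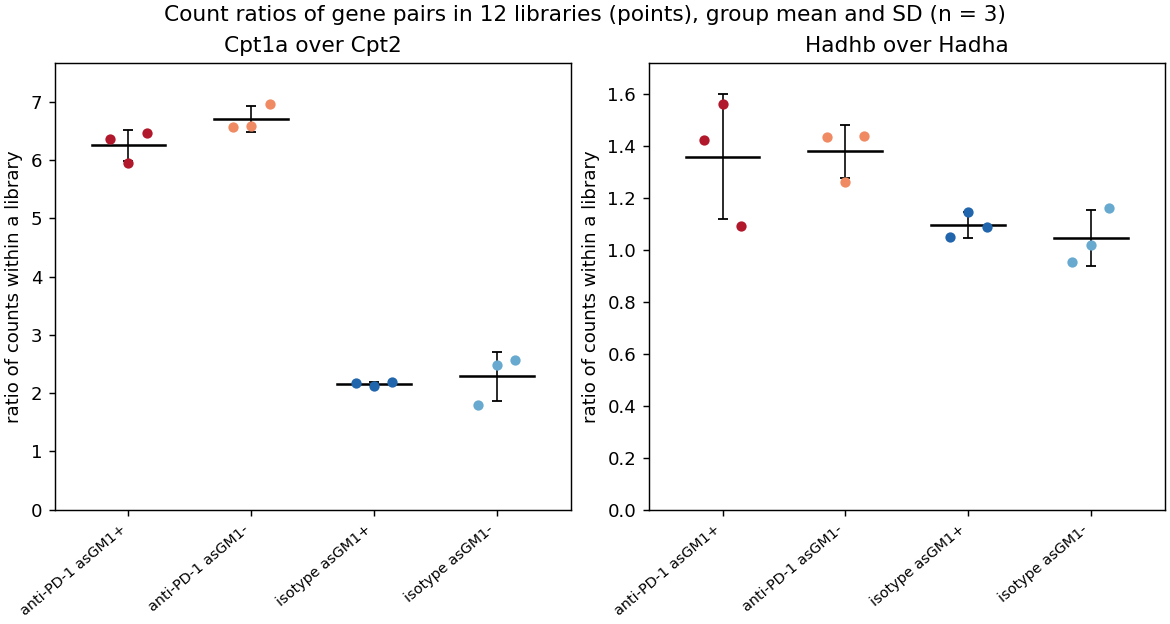
Ratio of counts within each library (vertical axes, from 0) of Cpt1a to Cpt2 on the left and of Hadhb to Hadha on the right, as points by group, with the group mean (wide bar) and SD (whiskers, n = 3). Cpt1a over Cpt2 lies between 5.95 and 6.97 under anti-PD-1 and between 1.80 and 2.58 under isotype; Hadhb over Hadha overlaps between treatments in asGM1+ cells.

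Acadvl (ENSMUSG00000018574) encodes the membrane-bound very-long-chain acyl-CoA dehydrogenase, which takes the first oxidation step on long chains. In asGM1+ cells it had 136, 163 and 132 CPM under anti-PD-1 against 94.8, 101 and 115 CPM under isotype. The asGM1- cells had 135, 147 and 154 CPM under anti-PD-1 against 96.8, 101 and 119 CPM under isotype. All anti-PD-1 libraries lay above all isotype libraries, and the log2 fold change was 0.47 ± 0.12 (adjusted p = 0.0303, edgeR) in asGM1+ and 0.46 ± 0.12 (adjusted p = 0.0310) in asGM1- cells. Leaving out single libraries ended these calls. In asGM1+ cells the adjusted p was 0.109 and 0.0875 without isotype replicates 1 and 2, 0.0559 and 0.129 without anti-PD-1 replicates 1 and 2, 0.172 without both anti-PD-1 replicate 2 libraries and 0.0792 in a fit of the 2 groups alone. In asGM1- cells it was 0.125 and 0.0967 without isotype replicates 1 and 2, 0.0560, 0.0881 and 0.121 without anti-PD-1 replicates 1, 2 and 3, and 0.0835 without both anti-PD-1 replicate 2 libraries. Exons of Acadvl overlap those of Dvl2 on the other strand, and whether the counting used strand was not stated.

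Acads (ENSMUSG00000029545), the short-chain dehydrogenase, had 34.0, 36.6 and 33.6 CPM under anti-PD-1 against 22.8, 29.1 and 23.6 CPM under isotype in asGM1+ cells. The asGM1- cells had 30.3, 31.1 and 30.8 CPM under anti-PD-1 against 24.3, 25.4 and 25.2 CPM under isotype. The treatments did not overlap in either population. The log2 fold change was 0.46 ± 0.11 (adjusted p = 0.0249, edgeR) in asGM1+ and 0.30 ± 0.11 (adjusted p = 0.116) in asGM1- cells, where DESeq2 gave 0.0365. In asGM1+ cells the adjusted p was 0.0946 and 0.0709 without isotype replicates 1 and 3, 0.0665 and 0.101 without anti-PD-1 replicates 1 and 2, 0.150 without both anti-PD-1 replicate 2 libraries and 0.114 in a fit of the 2 groups alone.

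The dehydrogenases for chain lengths between those of Acadvl and Acads did not pass. Acadl (ENSMUSG00000026003), the long-chain enzyme, had 207 to 214 CPM under anti-PD-1 against 159 to 198 CPM under isotype in asGM1+ cells, and 174 to 187 CPM against 174 to 188 CPM in asGM1- cells. Its log2 fold change was 0.20 (95% interval 0.01 to 0.40; adjusted p = 0.220, edgeR) in asGM1+ and -0.01 (-0.21 to 0.19; adjusted p = 0.973) in asGM1- cells. Acadm (ENSMUSG00000062908), the medium-chain enzyme, had 34.3 to 39.7 CPM under anti-PD-1 against 30.2 to 35.7 CPM under isotype in asGM1+ cells, and 35.8 to 38.1 CPM against 31.6 to 38.6 CPM in asGM1- cells. Its log2 fold change was 0.17 (95% interval -0.08 to 0.41; adjusted p = 0.444) in asGM1+ and 0.05 (-0.19 to 0.29; adjusted p = 0.851) in asGM1- cells.

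The 2 subunits of the trifunctional protein gave unlike values. Hadhb (ENSMUSG00000059447), the beta subunit with the thiolase activity, had 144, 153 and 122 CPM under anti-PD-1 against 111, 119 and 122 CPM under isotype in asGM1+ cells. In asGM1- cells Hadhb had 133, 131 and 133 CPM under anti-PD-1 against 93.4, 109.6 and 114 CPM under isotype. The treatments overlapped in asGM1+ cells through anti-PD-1 replicate 3 and did not overlap in asGM1- cells. The log2 fold change was 0.25 ± 0.10 (adjusted p = 0.182, edgeR) in asGM1+ and 0.32 ± 0.10 (adjusted p = 0.0754) in asGM1- cells, where DESeq2 gave 0.0287. Counts of the processed pseudogene Hadhb-ps came to 25.1 to 31.5% of those of Hadhb, and how reads shared by the 2 were assigned was not stated.

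Hadha (ENSMUSG00000025745), the alpha subunit with the hydratase and dehydrogenase activities, had 101, 97.8 and 112 CPM under anti-PD-1 against 106, 103 and 112 CPM under isotype in asGM1+ cells. In asGM1- cells Hadha had 92.9, 104 and 92.2 CPM under anti-PD-1 against 98.0, 108 and 98.2 CPM under isotype. The treatments overlapped, with log2 fold changes of -0.05 (95% interval -0.24 to 0.14; adjusted p = 0.824, edgeR) in asGM1+ and -0.07 (-0.26 to 0.11; adjusted p = 0.681) in asGM1- cells. Its exons overlap those of Garem2 on the other strand. The count ratio of Hadhb to Hadha was 1.42, 1.56 and 1.09 in asGM1+ cells under anti-PD-1, against 1.05, 1.15 and 1.09 under isotype (two-sided exact permutation p = 0.2). In asGM1- cells this ratio was 1.44, 1.26 and 1.44 under anti-PD-1, against 0.953, 1.02 and 1.16 under isotype (two-sided exact permutation p = 0.1, the smallest possible). The RNAs of this head-to-head pair thus differed in ratio between treatments in asGM1- cells without overlap, which 3 libraries against 3 cannot bring under 0.05.

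Acaa2 (ENSMUSG00000036880), the 3-ketoacyl-CoA thiolase of the mitochondrial matrix, had 132 to 148 CPM under anti-PD-1 against 123 to 141 CPM under isotype in asGM1+ cells, and 127 to 149 CPM against 116 to 126 CPM in asGM1- cells. The treatments overlapped in asGM1+ cells and were apart by a narrow margin in asGM1- cells. The log2 fold change was 0.08 ± 0.09 (adjusted p = 0.677, edgeR) in asGM1+ and 0.22 ± 0.09 (adjusted p = 0.178) in asGM1- cells.

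**Figure D3:**
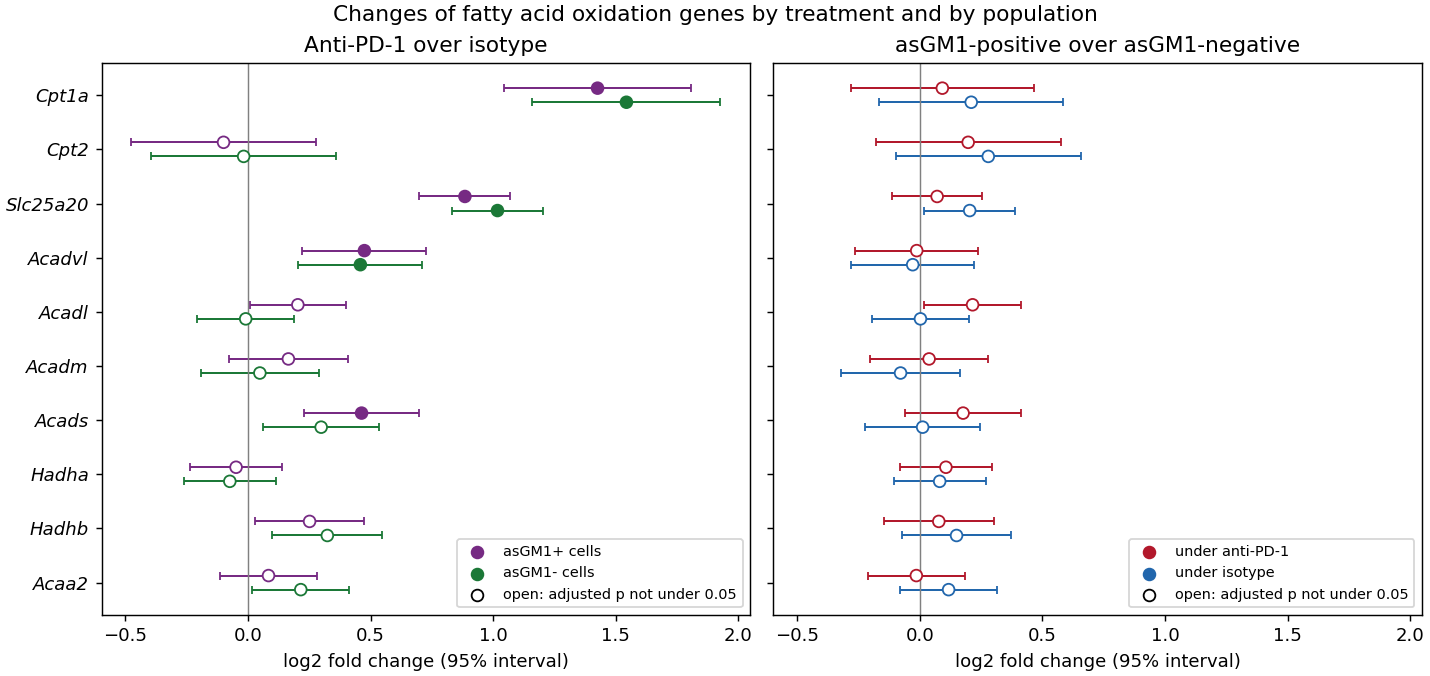
Log2 fold changes with 95% intervals (horizontal axes) of the 10 genes from the edgeR fit, for anti-PD-1 over isotype on the left and for asGM1-positive over asGM1-negative cells on the right; filled points have an adjusted p under 0.05. The 7 filled points are all on the left, for Cpt1a, Slc25a20 and Acadvl in both populations and Acads in asGM1+ cells.

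Averaged over the populations, 5 of the 10 passed as higher under anti-PD-1, against 9.12% of all tested genes. They were Cpt1a (log2 fold change 1.48 ± 0.12, adjusted p = 1.81e-05), Slc25a20 (0.95 ± 0.06, adjusted p = 3.43e-06), Acadvl (0.47 ± 0.08, adjusted p = 0.00237), Acads (0.38 ± 0.08, adjusted p = 0.00522) and Hadhb (0.29 ± 0.07, adjusted p = 0.0175), all by edgeR. Same-numbered libraries of a treatment deviated together, so this average counts paired libraries as if independent. By DESeq2 5 of the 10 passed as higher on average (11.6% of its genes). With the pair as a random effect in limma voom 5 of the 10 passed (6.67% of all tested genes), and with the counts of each pair summed, 3 pairs against 3, Cpt1a, Slc25a20 and Acadvl passed (3.83%). The adjusted p in the summed fit was 0.0595 for Acads and 0.0986 for Hadhb. Without asGM1+ anti-PD-1 replicate 2 the adjusted p of Hadhb was 0.0503, and without both anti-PD-1 replicate 2 libraries it was 0.0844. Acadvl passed in each of the 20 alternatives run for the average, with an adjusted p of at most 0.0354.

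Between the populations 0 of the 10 passed by edgeR, DESeq2 or limma voom, either under anti-PD-1 (1.58% of all tested genes passed by edgeR in either direction), under isotype (1.31%) or on average (3.59%). DESeq2 passed 4.54%, 4.24% and 7.62% of its genes in these comparisons and limma voom 1.46%, 1.53% and 3.95%. With the pair as a block 0 of the 10 passed, against 4.78%, 3.94% and 8.6% of all tested genes, and with the pair as a random effect 0 of the 10, against 4.41%, 4.66% and 9.04%. The share of all tested genes at an unadjusted p under 0.05 is not given here. At that threshold there was 1 of the 10 in each comparison. These were Acadl under anti-PD-1, Slc25a20 under isotype and Slc25a20 on average. Acadl had 211, 207 and 214 CPM in asGM1+ against 187, 174 and 183 CPM in asGM1- cells under anti-PD-1, without overlap, a log2 fold change of 0.22 (95% interval 0.02 to 0.41; adjusted p = 0.378, edgeR). Slc25a20 had 58.2, 63.6 and 54.1 CPM in asGM1+ against 50.3, 52.1 and 50.3 CPM in asGM1- cells under isotype, also without overlap, a log2 fold change of 0.20 (0.02 to 0.39; adjusted p = 0.341). Groups did not overlap, with asGM1+ higher, for 2 of the 10 under anti-PD-1 (Acadl and Acads), against 10.2% of all tested genes, and for 1 under isotype, against 7.94%. Cpt1a had a population difference of 0.09 (95% interval -0.28 to 0.47) under anti-PD-1 and 0.21 (-0.17 to 0.59) under isotype, so a difference of up to about 1.5-fold was within the intervals. The median log2 fold change of the 10 genes was 0.08 under anti-PD-1, 0.10 under isotype and 0.10 on average. That of all tested genes was -0.01, -0.0008 and -0.006. In each comparison 8 of the 10 values were above 0, and a joint shift was not tested.

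Whether the treatment effect differed between populations was tested as an interaction. By edgeR 0 of the 10 passed, and 0 passed by DESeq2 or limma voom. Of all tested genes 0% passed by edgeR, 0.731% by DESeq2 and 0% by limma voom. At an unadjusted p under 0.05 by edgeR there were 0 of the 10, a threshold whose share of all tested genes is not given here. For Cpt1a the treatment effect was 0.12 smaller in asGM1+ than in asGM1- cells on the log2 scale, an interaction of -0.12 (95% interval -0.65 to 0.41; adjusted p = 0.976). For Acads, which passed in asGM1+ cells alone, the interaction was 0.16 (-0.17 to 0.50, adjusted p = 0.923), so a difference between populations was not shown. Of the list genes named below, DESeq2 passed the interaction of Plin2 (-0.80, adjusted p = 0.0152) and Prkab1 (-0.50, adjusted p = 0.0217). It also passed that of Fads2 (-2.53, adjusted p = 0.00408) and Fads3 (-4.10, adjusted p = 0.00909). By edgeR and limma voom these 4 did not pass.

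Levels of different genes were compared per length, as CPM per kb of annotated exon (GENCODE M21, GRCm38). The length took the exons of all annotated transcripts of a gene together. It was 8.73 kb for Hadha, 7.642 kb for Cpt1a and 6.595 kb for Hadhb, against 2.686 kb for Acadvl. The order of the genes depends on these lengths, and which transcripts the cells made was not tested. In CPM, mean Hadhb (140) lay near mean Acadvl (144) in asGM1+ cells under anti-PD-1. Under anti-PD-1 in asGM1+ cells Acadl had 105 ± 1.73, Acaa2 91.5 ± 5.68 and Acadvl 53.6 ± 6.20 CPM per kb (SD, n = 3), well above the other 7, which lay between 9.58 and 22.4. Under isotype in asGM1- cells the same 3 led, with 91.1 ± 3.73, 79.6 ± 3.47 and 39.3 ± 4.36 CPM per kb, and the other 7 lay between 6.01 and 16.0. In asGM1- cells under anti-PD-1 Acaa2 (92.4 ± 7.79) and Acadl (90.5 ± 3.34) did not differ beyond their spread. Cpt1a was the lowest of the 10 per length in both isotype groups, at 6.95 ± 0.890 in asGM1+ cells, where the range of Acadm (8.61 ± 0.782) met that of Cpt1a, and 6.01 ± 1.60 in asGM1- cells, where that of Cpt2 (8.45 ± 1.75) did. Under anti-PD-1 Cpt1a had 18.7 ± 2.70 CPM per kb in asGM1+ and 17.5 ± 0.784 in asGM1- cells, and Acads, Hadha, Acadm and Cpt2 had lower means in both, the range of Acads meeting that of Cpt1a in asGM1+ cells. Slc25a20 had 22.4 ± 1.52 and 21.3 ± 0.329 CPM per kb under anti-PD-1 in asGM1+ and asGM1- cells, against 12.1 ± 0.983 and 10.5 ± 0.208 under isotype.

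Other genes of lipid metabolism did not move as a block. Of all tested genes 3.72% passed as higher and 3.01% as lower under anti-PD-1 in asGM1+ cells, and 4.11% and 4.45% in asGM1- cells. Of 14 further genes of mitochondrial beta-oxidation tested, 0 passed as higher and 1 as lower in each population under anti-PD-1: Eci1, an enoyl-CoA isomerase for unsaturated chains, in asGM1+ cells (log2 fold change -0.44 ± 0.11, adjusted p = 0.0311, edgeR) and Etfa, a subunit of the electron transfer flavoprotein, in asGM1- cells (-0.32 ± 0.08, adjusted p = 0.0400). The Etfa call was lost in 14 of the 20 alternatives, with an adjusted p of 0.0517 with the pair as a random effect, 0.0533 to 0.145 without any 1 of 10 of the 12 libraries and 0.189 without both anti-PD-1 replicate 2 libraries. Unadjusted p-values under 0.05 numbered 6 and 5 of the 14, and DESeq2 passed 4 in each population. The DESeq2 calls went both ways. Of the genes described below, Etfdh was higher (adjusted p = 0.0450 in asGM1+ and 0.0240 in asGM1- cells) and Etfb lower (0.0421 and 0.0278). DESeq2 passed 6.41% (asGM1+) and 8.5% (asGM1-) of its genes as higher. Its share as lower and the share of all tested genes at the unadjusted threshold are not given here. The Eci1 call was lost in 8 of the 20 alternatives, among them without isotype asGM1+ replicates 1 (0.0854) and 2 (0.118), anti-PD-1 asGM1+ replicates 1 (0.138) and 2 (0.101), isotype asGM1- replicate 2 (0.0501) and anti-PD-1 asGM1- replicate 3 (0.0580). On average over the populations the electron transfer genes parted, with Etfdh, the flavoprotein's oxidoreductase, higher (0.31 ± 0.07, adjusted p = 0.0116) and Etfb, the other flavoprotein subunit, lower (-0.33 ± 0.08, adjusted p = 0.0146). With pairs summed their adjusted p was 0.0884 and 0.0876, and that of Eci1 on average 0.0568. Of 16 citrate cycle genes 0 passed by edgeR or limma voom in either population or on average. On average 3 had an unadjusted p under 0.05 and DESeq2 passed 3, and the shares of all tested genes for these counts are not given here. Median log2 fold changes of the citrate cycle genes were -0.05 in asGM1+ and 0.02 in asGM1- cells.

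Fatty acid synthesis went the other way. Of 14 genes tested, 0 passed as higher and 5 (asGM1+) and 4 (asGM1-) passed as lower under anti-PD-1, where 3.01% and 4.45% of all tested genes did, and the list medians were -0.61 and -0.54 on the log2 scale. On average 10 of the 14 passed as lower (9.02% of all tested genes). Fasn, the fatty acid synthase, had 26.9, 38.9 and 37.6 CPM under anti-PD-1 against 57.3, 52.7 and 63.7 CPM under isotype in asGM1+ cells, and 23.8, 32.9 and 29.4 CPM against 68.9, 60.5 and 61.0 CPM in asGM1- cells. Its log2 fold change was -0.75 ± 0.16 (adjusted p = 0.0149, edgeR) in asGM1+ and -1.14 ± 0.16 (adjusted p = 0.00164) in asGM1- cells. The asGM1+ call gave 0.0522 without anti-PD-1 asGM1+ replicate 1 and 0.0508 in a fit of the 2 groups alone. Of the fatty acid desaturases, Fads1 fell by 1.27 and 1.15 on the log2 scale in asGM1+ and asGM1- cells (adjusted p = 0.00282 and 0.00508). Fads2 had 0.158 ± 0.0800 CPM under anti-PD-1 against 3.95 ± 1.62 CPM under isotype in asGM1+ cells, and 1.82 ± 0.292 CPM against 8.0 ± 1.26 CPM in asGM1- cells (SD, n = 3). The Fads2 log2 fold change was -4.65 ± 0.42 (adjusted p = 7.94e-05) in asGM1+ and -2.13 ± 0.36 (adjusted p = 0.00430) in asGM1- cells, and the Fads1 and Fads2 calls passed in each of the 20 alternatives. Acaca, the carboxylase that makes malonyl-CoA, had 8.77 ± 1.27 CPM under anti-PD-1 against 11.6 ± 2.96 CPM under isotype in asGM1+ cells, and 9.12 ± 0.956 CPM against 15.9 ± 4.52 CPM in asGM1- cells (SD, n = 3), and did not pass in either (adjusted p = 0.378 and 0.0637, edgeR). By DESeq2 it passed as lower in asGM1- cells (adjusted p = 0.0104). On average Acaca fell by 0.61 on the log2 scale (adjusted p = 0.0299), a call lost in 11 of the 20 alternatives, at 0.0793 with the pair as a random effect, 0.123 with pairs summed and 0.0643 to 0.0753 without replicate 1 or 2 of 3 of the groups or replicate 1 or 3 of asGM1- anti-PD-1 cells. The other carboxylase, Acacb, was under 1.07 CPM in every library and did not pass (adjusted p = 0.586 in asGM1+ and 0.546 in asGM1- cells).

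Among lipid droplet genes Plin2 rose in both populations. Of 8 lipolysis and droplet genes tested, 1 passed as higher in asGM1+ (3.72% of all tested genes did) and 3 in asGM1- cells (4.11%), and 0 as lower. Plin2, which coats lipid droplets, had 146, 162 and 145 CPM under anti-PD-1 against 52.9, 70.3 and 49.9 CPM under isotype in asGM1+ cells. The asGM1- cells had 194, 184 and 172 CPM under anti-PD-1 against 42.6, 41.7 and 35.5 CPM under isotype. The groups were far apart, the log2 fold change was 1.39 ± 0.13 (adjusted p = 0.000105, edgeR) in asGM1+ and 2.20 ± 0.13 (adjusted p = 1.78e-05) in asGM1- cells, and both calls passed in each of the 20 alternatives. Hilpda, an inhibitor of the lipase ATGL, passed in asGM1- cells (1.14 ± 0.26, adjusted p = 0.0182) and not in asGM1+ cells (0.57 ± 0.26, adjusted p = 0.217). On average Hilpda rose by 0.86 (adjusted p = 0.00661; 0.0569 with pairs summed). Its asGM1- call gave 0.0813 and 0.0642 without isotype replicates 1 and 3, 0.0524 and 0.0616 without anti-PD-1 replicates 1 and 2, and 0.0855 without both anti-PD-1 replicate 2 libraries. G0s2, another inhibitor of that lipase, was at most 1.11 CPM and did not pass in either population by edgeR. By DESeq2 it passed as lower in both (adjusted p = 0.0247 in asGM1+ and 0.0237 in asGM1- cells). On average it fell by 2.12 on the log2 scale (adjusted p = 0.00877, edgeR).

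**Figure D4:**
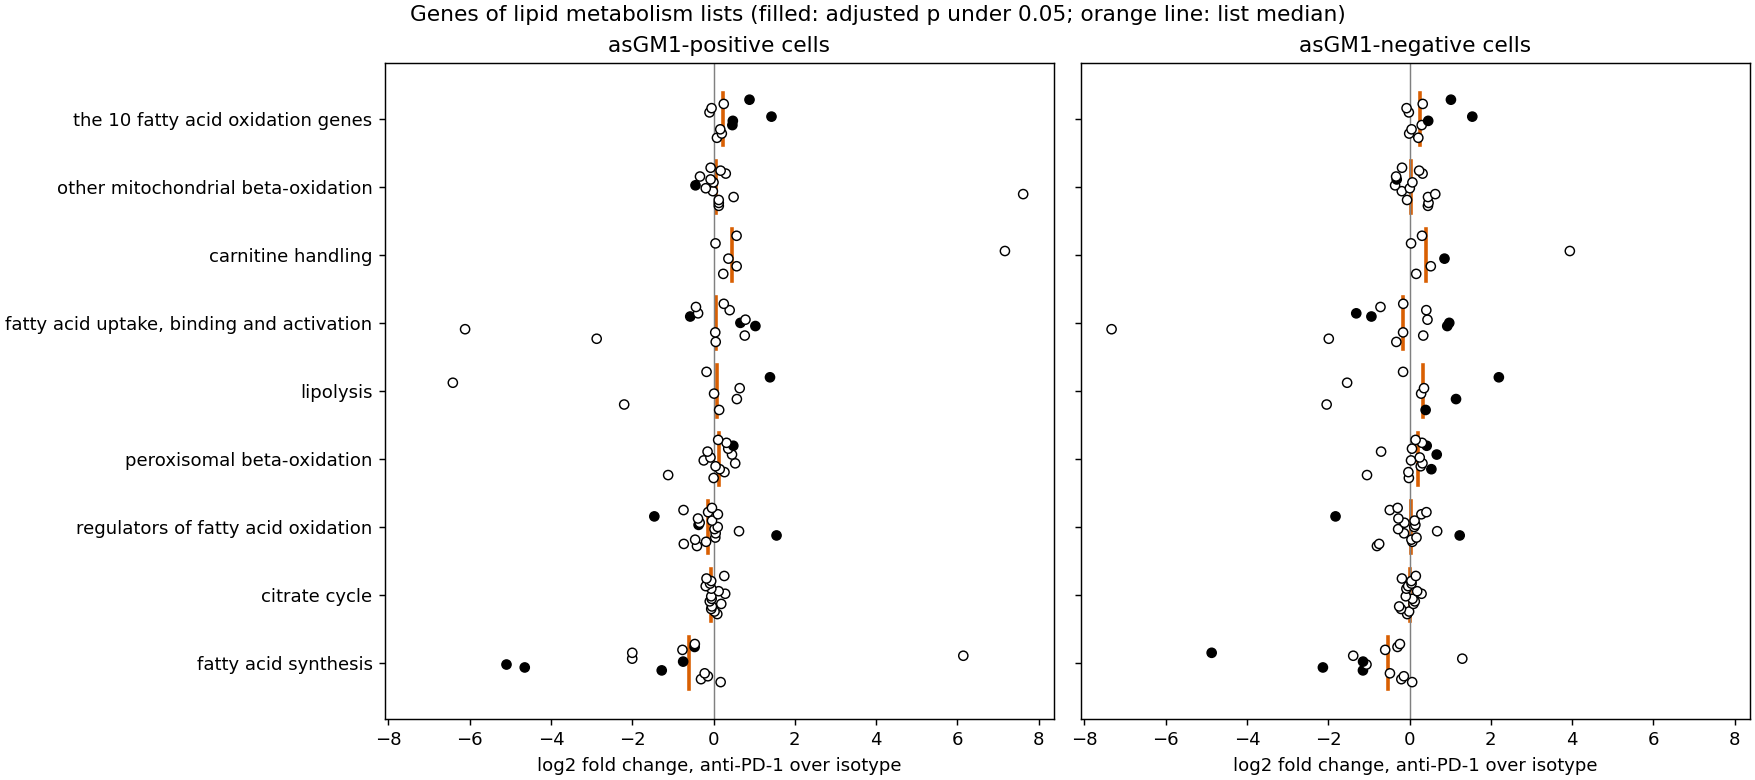
Log2 fold changes of anti-PD-1 over isotype (horizontal axes) for each tested gene of 9 lists of lipid metabolism, with asGM1+ cells on the left and asGM1- cells on the right; filled points have an adjusted p under 0.05 and the orange line is the list median. Fatty acid synthesis has the lowest median, -0.61 in asGM1+ and -0.54 in asGM1- cells; open points far from 0 are genes of very low counts.

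Around the carnitine step, 0 of 6 further genes of carnitine handling passed in asGM1+ cells and 1 as higher in asGM1- cells (4.11% of all tested genes did). In asGM1+ cells 4 had an unadjusted p under 0.05 (share of all tested genes not given here). There DESeq2 (6.41% of its genes as higher) and limma voom passed 1 each. On average over the populations 4 of the 6 passed as higher by edgeR (9.12% of all tested genes), DESeq2 (11.6% of its genes) and limma voom. The shares of all tested genes by limma voom are not given here. The median log2 fold change was 0.49. That count was 1 with the pair as a random effect (6.67%) and 2 with pairs summed (3.83%). Single libraries left out ended some of these calls, as given below by gene. The gene called in asGM1- cells was Crot, which makes carnitine esters in peroxisomes, with 315, 300.2 and 294 CPM under anti-PD-1 against 135, 186 and 179 CPM under isotype in asGM1- cells. Its log2 fold change was 0.86 ± 0.13 (adjusted p = 0.00294, edgeR) in asGM1- and 0.37 ± 0.13 (adjusted p = 0.138) in asGM1+ cells. Crat, the mitochondrial carnitine acetyltransferase, passed in neither population (0.57 in asGM1+ and 0.52 in asGM1- cells, adjusted p = 0.151 and 0.171). On average it passed (0.55 ± 0.15, adjusted p = 0.0281), a call lost in 10 of the 20 alternatives, among them the random effect (0.0809), pairs summed (0.120) and 7 of the 12 single libraries left out (0.0560 to 0.0758). Slc25a29, a mitochondrial carrier named here after its values were seen, also passed on average (0.44 ± 0.13, adjusted p = 0.0386), a call lost in 14 of the 20 alternatives, with 9 of the 12 single libraries left out among them (0.0526 to 0.0913). Slc22a4, an organic cation transporter, was at 0.227 to 0.331 CPM in asGM1+ cells under anti-PD-1, at 0 in 2 of the 3 asGM1- libraries under anti-PD-1, and at 0 in all 6 isotype libraries. It did not pass in either population (adjusted p = 0.0795 in asGM1+ and 0.305 in asGM1- cells). Its call on average (adjusted p = 0.0345) was lost in 12 of the 20 alternatives, with 9 of the 12 single libraries left out among them (0.0535 to 1.0, the highest without asGM1- anti-PD-1 replicate 2). Of 14 genes of peroxisomal beta-oxidation, 1 passed as higher in asGM1+ (3.72% of all tested genes did) and 3 in asGM1- cells (4.11%), and 0 as lower. Acox3, an acyl-CoA oxidase, rose by 0.67 ± 0.13 (adjusted p = 0.00991) and Abcd4, a transporter of the ABCD family, by 0.54 ± 0.11 (adjusted p = 0.00979) in asGM1- cells, each 0.0512 without asGM1- anti-PD-1 replicate 3. Hsd17b4, the multifunctional enzyme of the spiral in peroxisomes, had log2 fold changes of 0.49 (adjusted p = 0.0266) in asGM1+ and 0.42 (adjusted p = 0.0428) in asGM1- cells, calls lost in 6 and 11 of the 20 alternatives, with adjusted p of up to 0.134 and 0.162, among them without replicate 1 or 2 of either treatment in the population compared.

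Uptake, binding and activation were mixed. Of 13 genes tested, 2 passed as higher and 1 as lower in asGM1+ cells, and 2 as higher and 2 as lower in asGM1- cells. The shares of all tested genes were 3.72% higher and 3.01% lower in asGM1+ cells, and 4.11% and 4.45% in asGM1- cells. Acss1 and Acss2, which activate acetate, had log2 fold changes of 1.03 ± 0.21 and 0.66 ± 0.17 in asGM1+ (adjusted p = 0.0143 and 0.0362, edgeR) and 0.93 ± 0.21 and 0.98 ± 0.17 in asGM1- cells (adjusted p = 0.0202 and 0.00497). Dbi, the acyl-CoA binding protein, fell by 0.57 (adjusted p = 0.0215) in asGM1+ and by 0.94 (adjusted p = 0.00165) in asGM1- cells. The asGM1- calls of Acss2 and Dbi passed in each of the 20 alternatives; those of Acss1 were lost in 2 (asGM1+) and 5 (asGM1-), and the asGM1+ calls of Acss2 and Dbi in 11 and 6, at adjusted p of at most 0.161. The libraries concerned included anti-PD-1 asGM1+ replicate 2 for all 3 genes in asGM1+ cells (0.0533 for Acss1, 0.116 for Acss2 and 0.0934 for Dbi) and anti-PD-1 asGM1- replicate 1 for Acss1 in asGM1- cells (0.0790). Acsl4, which activates long-chain fatty acids, did not pass in asGM1+ (0.77, adjusted p = 0.0640) or asGM1- cells (0.34, adjusted p = 0.411) by edgeR. By DESeq2 it passed as higher in asGM1+ cells (adjusted p = 0.0108). On average Acsl4 rose by 0.55 (adjusted p = 0.0307), a call lost in 12 of the 20 alternatives, among them the random effect (0.0550), pairs summed (0.113) and 8 of the 12 single libraries left out (0.0506 to 0.0798). Cd36, a fatty acid receptor, was at 0.957 to 4.16 CPM and did not pass (adjusted p = 0.512 and 0.729).

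Of 19 tested regulators of fatty acid oxidation, 1 passed as higher and 2 as lower in asGM1+ cells, and 1 as higher and 1 as lower in asGM1- cells. The shares of all tested genes were 3.72% higher and 3.01% lower in asGM1+ cells, and 4.11% and 4.45% in asGM1- cells. Nrip1, a corepressor of nuclear receptors known to repress oxidation genes in fat and muscle, had 105, 90.8 and 65.0 CPM under anti-PD-1 against 25.9, 25.3 and 37.8 CPM under isotype in asGM1+ cells. The asGM1- cells had 109, 86.6 and 89.1 CPM under anti-PD-1 against 40.7, 36.1 and 44.3 CPM under isotype. Its log2 fold change was 1.55 ± 0.20 (adjusted p = 0.000780, edgeR) in asGM1+ and 1.23 ± 0.20 (adjusted p = 0.00319) in asGM1- cells, and both calls passed in each of the 20 alternatives. Rxra, the partner of PPAR receptors, fell by 1.46 (adjusted p = 0.0440) in asGM1+ and by 1.82 (adjusted p = 0.0139) in asGM1- cells. The Rxra calls were lost in 11 and 2 of the 20 alternatives, with adjusted p of 0.147 without asGM1+ anti-PD-1 replicate 1 and 0.0680 and 0.0526 without asGM1- anti-PD-1 replicates 1 and 2. Prkab1, a subunit of AMP-activated kinase, fell by 0.37 (adjusted p = 0.0299) in asGM1+ cells, a call lost in 7 alternatives, up to 0.138 without asGM1+ anti-PD-1 replicate 1. Ppara, the PPAR of liver oxidation, was at 0 in all 12 libraries, and Ppargc1a, a coactivator of mitochondrial genes, at 0 to 0.0990 CPM.

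Between the populations these lists held few calls by edgeR without the pairing. By limma voom 0 of 14 fatty acid synthesis genes passed under either treatment. By edgeR 2 of the 14 passed as lower in asGM1+ than in asGM1- cells under anti-PD-1 (0.654% of all tested genes did) and 0 under isotype. DESeq2 passed the same 2 under anti-PD-1 and 0 under isotype. They were Fads2 (log2 fold change -3.53 ± 0.41, adjusted p = 0.00321, edgeR; 0.0518 by limma voom) and Fads3, named after its values were seen, which was at 0 to 0.122 CPM in asGM1+ and 0.987 to 1.93 CPM in asGM1- cells (adjusted p = 0.0180). The Fads3 call gave 0.0705 by limma voom, 0.0512 and 0.0635 without asGM1- anti-PD-1 replicates 2 and 3, and 0.0634 without asGM1+ anti-PD-1 replicate 3. On average over treatments 1 of 16 citrate cycle genes passed as higher, Sdhc, a subunit of succinate dehydrogenase (0.28 ± 0.07, adjusted p = 0.0404). Of all tested genes 3.59% passed there in either direction. The Sdhc call was lost in 12 of the 20 alternatives, with an adjusted p of 0.0692 without the low-count filter, 0.0548 to 0.110 in 10 of the 12 fits with 1 library left out and 0.139 without both anti-PD-1 replicate 2 libraries.

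The other 7 lists had 0 genes that passed between populations by edgeR without the pairing, while DESeq2 without it and fits with it passed some. By DESeq2 Plin2 (adjusted p = 0.00705) and Prkab1 (0.00116) passed as higher in asGM1+ cells under isotype, and Rxra (0.0352) as lower. DESeq2 also passed Etfa as higher under anti-PD-1 (0.00483) and on average (0.0115), and Rxra as lower on average (0.00354). With the pair as a block Plin2 passed as higher in asGM1+ cells under isotype (0.52, adjusted p = 0.0241), as did Prkab1 (0.39, adjusted p = 0.0238). Rxra passed as lower under isotype (-1.23, adjusted p = 0.0212) and on average (-1.07, adjusted p = 0.00483), and Crot as lower under anti-PD-1 (-0.32, adjusted p = 0.0155). With the pair as a random effect Plin2 (0.0181), Prkab1 (0.0105) and Rxra (0.0111) passed under isotype, Rxra on average (0.00505), Slc22a4 (0.0422) and Etfa (0.0260) under anti-PD-1 and Etfa on average (0.0259). The block also passed Fabp5, a fatty acid binding protein, as higher in asGM1+ cells under anti-PD-1. Rxra passed on average by limma voom without the pairing as well (0.0416). Of the fatty acid synthesis genes Fads2 (0.0234) and Fads3 (0.0377) passed as lower under isotype with the pair as a random effect, and the block passed Fads1 as higher on average. Of the citrate cycle genes the block passed Sdhc under isotype (0.0338) as higher, as did DESeq2 without the pairing (0.00855).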

How the data were processed

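The deposited values are raw counts by gene in whole numbers for the 12 libraries. Per the submitters' processing notes, HISAT2, StringTie and build mm39 were used. Versions, annotation, use of strand and handling of shared reads are not given in the sources used here. A symbol was lacking for 310 genes, which held 0.0387 to 0.0547% of counts and were kept. Counts were tested with edgeR 4.0.16 (limma 3.58.1, R 4.3.3) as a quasi-likelihood fit of 4 group means with 8 residual degrees of freedom, after filterByExpr (18657 genes) and TMM scaling (factors 0.970 to 1.04). The biological coefficient of variation was 0.336. SE is that of the log2 fold change, intervals are 95%, and the fit was tested on simulated data.

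Same-numbered libraries of a treatment deviated together (correlation of deviations 0.121 to 0.298 in 6 of 6 pairs, -0.118 to 0.0497 across treatments), so the number pairs the populations within a treatment; the labels do not say why. Alternatives were DESeq2 1.42.0, limma voom, RLE scaling, no filter, only the groups compared, replicate blocks, each library left out, and, chosen after seeing the data, both anti-PD-1 replicate 2 libraries left out, Hadhb and Hadhb-ps summed, the pair as a random effect and pairs summed. Of 182 names on 19 lists 181 were found; Tmlhe was not analysed here. The members and lists were chosen with earlier results of these data known. Named were all members, up to 3 genes a list by smallest p among those that passed, and 7 set genes: Cpt1b, Ppargc1a, Ppara, Acaca, Acacb, Acsl4 and Cd36; Etfa, Fads3, Slc25a29, Fabp5 and markers were named after their values were seen. Upstream sequences came from RefSeq (GRCm38.p6) and exon lengths from GENCODE M21.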

Additional observations from a re-analysis of the deposited data

How the results depend on the processing

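No member changed direction past the threshold under any alternative. In asGM1- cells 5 of the 10 passed by DESeq2 (8.5% of its genes) against 3 by edgeR (4.11% of all tested genes). In asGM1+ cells the count of 4 (3.72%) became 2 in a fit of only the groups compared (2.19%) and 2 without both anti-PD-1 replicate 2 libraries (1.53%). Single libraries left out ended the Acadvl and Acads calls there, as given above. Averaged over populations the count of 5 (9.12%) became 3 with pairs summed (3.83%). With the replicate block by pair within treatment 0 of the 10 passed between populations, against the shares given above. With the replicate number as a block each treatment call of a member stayed as in the main fit. Calls of list genes between populations gained by DESeq2 or with the pairing are given above. Over the recomputed values of the members and named genes, 213 lost the threshold, 62 gained it and 5268 kept their side. With 3 libraries a group, the intervals of the 10 members, none of which passed between populations, reached differences of up to 0.66 on the log2 scale. This limit does not cover the list genes.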

Other observations

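Among 8796 genes with a mean log2 CPM of at least 3, the levels over the 12 libraries most like those of Cpt1a were those of Ptpn22 (Pearson r = 0.985), a phosphatase that restrains T cell receptor signalling, Tnfrsf1b (r = 0.983), a TNF receptor, Tax1bp1 (r = 0.981), Nsmaf (r = 0.979) and Slc37a2 (r = 0.979). For the mean of the 10 members they were Rgs16 (r = 0.985), a regulator of G protein signalling, Nsmaf (r = 0.976), Gpr160 (r = 0.971), Fbxo9 (r = 0.971) and Selenon (r = 0.970). The libraries share the treatment step, so these values are a description. Cpt1a and Slc25a20 had r = 0.96 over the 12 libraries and -0.06 for deviations from the group means; Cpt1a and Cpt2 had 0.11 and 0.79, and Cpt1a and Acadvl 0.93 and 0.67.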
